A study of Mus musculus with 6 samples.

Results

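A set of 10 genes of the Notch pathway was followed in isolated lung endothelial cells (iLECs) of mice with and without an endothelial deletion of *Atp6ap2*, out of 24972 gene symbols in the deposited table. They were taken by symbol: the 4 receptors *Notch1*, *Notch2*, *Notch3* and *Notch4*, the 4 ligands *Dll1*, *Dll4*, *Jag1* and *Jag2*, and the 2 transcription factor genes *Hey1* and *Heyl*. All 10 were listed in the table, and all 10 passed the filter on low values. Notch receptors are cut when a ligand on a neighboring cell binds them, and the freed intracellular part enters the nucleus, where it joins the DNA-binding protein RBPJ and switches on genes of the Hes and Hey families. In growing vessels, DLL4 on tip cells signals through NOTCH1 to hold back sprouting in their neighbors and to promote arterial fate. NOTCH3 is the receptor of mural cells, the pericytes and smooth muscle cells that wrap endothelial tubes, and *Heyl* is widely used with it as a mural gene. *Notch1*, *Notch4* and *Dll4* were set as the endothelial members and *Notch3* and *Heyl* as the mural ones.

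The iLECs came from the lungs of C57BL/6 pups (per the labels; the study's methods give a mixed CD1 and C57BL/6 background) at postnatal day 7, and were CD31-positive cells picked out with antibody-coated magnetic beads. In the 3 control samples *Atp6ap2* was floxed and no Cre was present, and the 3 *Atp6ap2* iECKO samples had the same floxed gene with *Cdh5-CreERT2*, a tamoxifen-inducible recombinase under the endothelial *Cdh5* promoter. All 6 had tamoxifen (100 μg) from day 1 to day 3, so the controls shared the drug and the floxed allele but not the transgene. Values are normalized counts, estimated read counts that the authors had scaled between libraries, with 1 library per sample and totals between 26243878 and 28725799. *Atp6ap2* itself stood at 7490, 5815 and 5681 in controls and at 4220, 2336 and 1982 in *Atp6ap2* iECKO replicates 1, 2 and 3. Every sample is labelled fl/Y, but *Xist*, the transcript of the inactive X chromosome, was 37704 or more in 4 libraries and was at most 31.7 in control replicate 3 and *Atp6ap2* iECKO replicate 2. *Ddx3y*, a gene of the Y chromosome, was 4554 in control replicate 3 and 4656 in *Atp6ap2* iECKO replicate 2. It was 173 and 0 in control replicates 1 and 2, and 0 and 11.3 in *Atp6ap2* iECKO replicates 1 and 3. Control replicate 1 thus had some *Ddx3y* beside high *Xist*. The study used pups of both sexes, and a fit with a term for *Xist* was run as an alternative. Replicate 1 kept the most *Atp6ap2* of its group (log2 fold change of the gene -1.22, adjusted *P* = 0.0306 from limma).

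Of the 10 members, *Notch3*, *Heyl*, *Hey1* and *Dll4* fell in *Atp6ap2* iECKO iLECs and 0 rose, at an adjusted *P* value below 0.05 from limma. Over all 14456 genes tested, 4.97% were lower and 3.28% higher by the same rule, 8.25% together. Without adjustment, 6 members had a *P* value below 0.05, all of them lower, *Notch1* and *Jag1* being the others, where 12.3% of all genes were lower by that rule and 23.9% passed it in either direction. In 5 members every *Atp6ap2* iECKO library lay below every control library, against 15.0% of all genes tested, and no member was separated upward, against 14.7%, or 29.8% either way. The members had a median log2 fold change of -0.31, and all genes one of 0.0049. For each separated member an exact permutation test gave a two-sided *P* value of 0.1, the smallest that 3 samples against 3 allow. The count of 4 dropped to 2 without control replicate 3 and to 2 without limma's mean-variance trend, with *Notch3* and *Heyl* left in each case. Calls over all genes dropped too, from 719 lower and 474 higher to 205 and 63 without control replicate 3, 215 and 33 without *Atp6ap2* iECKO replicate 2, 176 and 28 without *Atp6ap2* iECKO replicate 3, and 235 and 69 without the trend. Without control replicate 1 there were 659 lower and 273 higher, and without control replicate 2 there were 362 and 461.

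**Figure D1:**
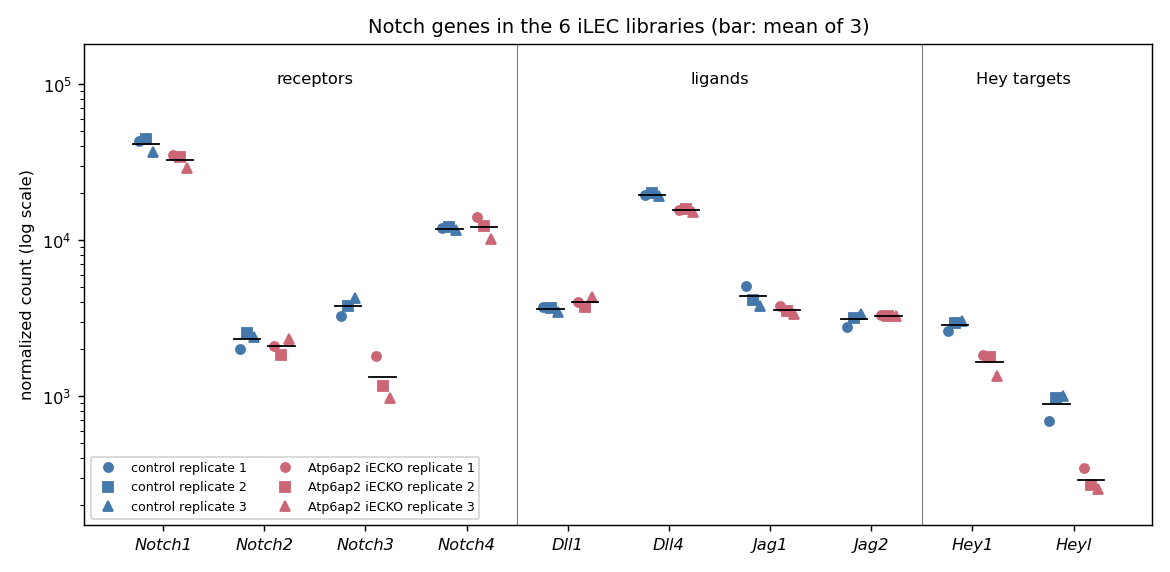
Normalized counts (log axis) of the 10 Notch genes in each library, with circles, squares and triangles for replicates 1, 2 and 3, blue for control, red for *Atp6ap2* iECKO, and a bar at each mean of 3. The red and blue points are fully apart for *Notch1*, *Notch3*, *Dll4*, *Hey1* and *Heyl* and intermingle for the other 5.

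Levels of different genes were set side by side as normalized counts per kilobase of annotated exon, since longer transcripts collect more reads. The length is the union of all annotated exons of a gene, not that of a single transcript. It was 14.2 kilobases for *Notch1*, 8.09 for *Notch3* and 8.06 for *Notch4*. Orders and shares across genes depend on this choice. On that scale *Dll4* was the most abundant member in control iLECs, at 5078 ± 119 per kilobase (SD, n = 3). *Notch1* followed at 2896 ± 300 and *Notch4* at 1468 ± 32.2, each apart from its neighbors in every library. *Hey1* (878 ± 70.8), *Dll1* (858 ± 30.6) and *Jag1* (747 ± 117) formed a middle group in which each overlapped the next. *Notch3* (466 ± 64.1) and *Jag2* (446 ± 43.6) also overlapped, as did *Notch2* (214 ± 24.3) and *Heyl* (174 ± 32.3) at the bottom. The order at the top was the same in *Atp6ap2* iECKO iLECs, with *Dll4* at 4030 ± 82.0, *Notch1* at 2288 ± 232 and *Notch4* at 1505 ± 243 per kilobase. Lower down, *Hey1* went from the fourth place to the sixth at 506 ± 81.0. *Notch3* went from the seventh place to the ninth at 163 ± 54.7, now overlapping *Notch2* at 193 ± 22.9. *Heyl* stayed last at 56.9, with a range of 49.7 to 68.3.

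*Notch3* lies on the minus strand of chromosome 17 of GRCm38 (mm10), from 32120820 to 32166852. Its normalized count was 3240, 3799 and 4276 in control replicates 1 to 3, and 1821, 1163 and 980 in *Atp6ap2* iECKO replicates 1 to 3. The lowest control was well above the highest *Atp6ap2* iECKO library, which was replicate 1. The fitted level in *Atp6ap2* iECKO iLECs was 34.1% of control, which is -1.55 on the log2 scale (SE 0.22, limma adjusted *P* = 0.0104, rank 130 of 14456 by *P* value). All 16 alternative settings kept this call, with log2 fold changes between -1.81 and -1.36 and adjusted *P* values between 0.00478 and 0.0478. *Notch3* is among the genes that the study picked from these libraries for display, so its fall is not independent evidence of direction. An antisense gene, *Gm17276*, shares 488 bases of exon with *Notch3*, and the library kit does not mark strand, so reads of both would be counted together.

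The other 3 receptors did not pass the test. *Notch1*, the main endothelial receptor, on chromosome 2 from 26457903 to 26516663, had normalized counts of 42774, 44488 and 36387 in controls and of 34884, 34042 and 28783 in *Atp6ap2* iECKO iLECs. The groups were separated, but by a margin smaller than the spread within each of them. The change came to -0.34 on the log2 scale (SE 0.13, limma adjusted *P* = 0.151), with a 95% confidence interval from -0.63 to -0.05. The noncoding gene *0610009E02Rik*, on the opposite strand, shares 1068 bases of exon with *Notch1* and went from 4012 to 2962 on average, or by -0.44 on the log2 scale (adjusted *P* = 0.032). As strand was not recorded, reads of this gene and of *Notch1* cannot be told apart where they overlap.

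*Notch4*, a receptor found chiefly in endothelium, on chromosome 17 from 34564268 to 34588503, had normalized counts of 11925, 12033 and 11539 in controls. In *Atp6ap2* iECKO iLECs it had 13990, 12330 and 10086, values that span the control range on both sides. The change was 0.024 on the log2 scale (adjusted *P* = 0.931, 95% confidence interval -0.26 to 0.31), and it turned to -0.085 without *Atp6ap2* iECKO replicate 1. *Notch2*, a broadly expressed receptor on chromosome 3 from 98013527 to 98150361, had 2021, 2529 and 2387 in controls and 2105, 1827 and 2320 in *Atp6ap2* iECKO iLECs. Its groups overlapped, and the change was -0.15 on the log2 scale (adjusted *P* = 0.502, 95% confidence interval -0.43 to 0.13). The gene *Gm42820*, on the same strand and without values of its own, shares 541 bases of exon with *Notch2*.

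The make-up of the receptor transcripts was also compared, per kilobase. *Notch3* made up 7.90%, 8.82% and 11.2% of the receptor transcripts in control replicates 1 to 3. It made up 4.89%, 3.39% and 3.36% in *Atp6ap2* iECKO replicates 1 to 3. *Notch4* had a share of 29.1% ± 1.08 in controls and 36.2% ± 1.51 in the mutant libraries (SD, n = 3 each), with levels of 11833 and 12135 normalized counts on average. *Notch1* held 57.3% ± 2.91 and 55.2% ± 1.78. These shares are descriptions, as they are tied to each other and to the fall of *Notch3*.

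**Figure D2:**
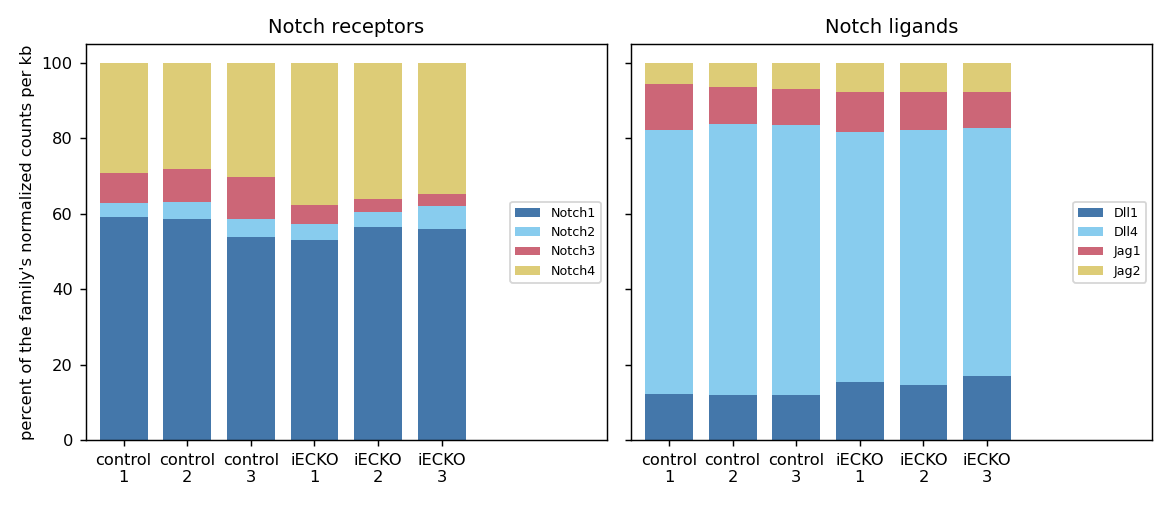
Share of each gene in the normalized counts per kilobase of the 4 receptors (left) and 4 ligands (right), in percent, as stacked bars that start at 0 for the 3 control and 3 iECKO libraries. The *Notch3* band averages 9.29% in control and 3.88% in iECKO libraries, and the *Dll4* band 71.2% and 66.5%.

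Among the ligands, *Dll4* fell and the other 3 did not pass the test. *Dll4* lies on the plus strand of chromosome 2 from 119325784 to 119335962. Its normalized count was 19519, 20036 and 19123 in controls and 15544, 15826 and 15196 in *Atp6ap2* iECKO iLECs. Replicates of each genotype lay close together, and a wide gap was left between the groups. The change was -0.33 on the log2 scale (SE 0.080, limma adjusted *P* = 0.0432), or 79.4% of control, about the same size as that of *Notch1*. This call was the least stable of the 4. It was lost in each of the 6 fits without 1 library (adjusted *P* from 0.0601 to 0.167), with the *Xist* term (0.0947), with no trend (0.087) and with no filter on low values (0.0546), although the log2 fold change stayed between -0.35 and -0.29 in all 16 alternatives. The noncoding gene *Gm14207* on the opposite strand shares 214 bases of exon with *Dll4* and averaged 308 and 225.

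*Jag1*, a ligand of endothelial and smooth muscle cells, on chromosome 2 from 137081456 to 137116644, had normalized counts of 5115, 4150 and 3801 in controls and of 3802, 3514 and 3352 in *Atp6ap2* iECKO iLECs. The lowest control and the highest *Atp6ap2* iECKO library were almost equal, and the log2 fold change was -0.28 (adjusted *P* = 0.19, 95% confidence interval -0.55 to -0.01). *Dll1*, on chromosome 17 from 15367354 to 15376872, had 3733, 3652 and 3480 in controls and 4003, 3724 and 4304 in *Atp6ap2* iECKO iLECs. Its groups overlapped by a narrow margin, and the change was 0.15 on the log2 scale (adjusted *P* = 0.334, 95% confidence interval -0.04 to 0.33). The noncoding gene *A930024N18Rik*, on the opposite strand and without values of its own, shares 867 of the 4219 exon bases of *Dll1*. Reads of both cannot be told apart there. *Jag2*, on chromosome 12 from 112907819 to 112929776, had 2774, 3181 and 3367 in controls and 3295, 3262 and 3253 in *Atp6ap2* iECKO iLECs. All *Jag2* values of the mutant group fell inside the control range (log2 fold change 0.078, adjusted *P* = 0.652, 95% confidence interval -0.13 to 0.28). Per kilobase, *Dll4* held 70.1% to 71.9% of the ligand transcripts in controls and 65.7% to 67.8% in *Atp6ap2* iECKO iLECs, and *Dll1* 11.9% to 12.2% and 14.6% to 17.0%.

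Both Hey genes fell. They encode repressors that bind DNA through a basic helix-loop-helix domain and are direct targets of Notch. *Heyl*, on chromosome 4 from 123233556 to 123249875, had normalized counts of 698, 969 and 997 in controls and of 349, 270 and 254 in *Atp6ap2* iECKO iLECs. The groups did not come near each other, and the level was 32.9% of control (log2 fold change -1.60, SE 0.18, adjusted *P* = 0.00831). All 16 alternatives kept the call, with adjusted *P* values from 0.00338 to 0.0424. *Hey1*, which arterial endothelium expresses, lies on chromosome 3 from 8663359 to 8667256. It was set with neither the endothelial nor the mural members, and which cells its fall came from was not tested. It had 2603, 2963 and 3035 in controls and 1828, 1782 and 1348 in *Atp6ap2* iECKO iLECs. These groups were also apart, with a level of 57.3% of control (log2 fold change -0.80, SE 0.13, adjusted *P* = 0.0142). The *Hey1* call was lost without control replicate 3 (adjusted *P* = 0.0594) and without the trend (0.0592), and was kept in the other 14 of 16 alternatives, which went down to 0.0121.

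**Figure D3:**
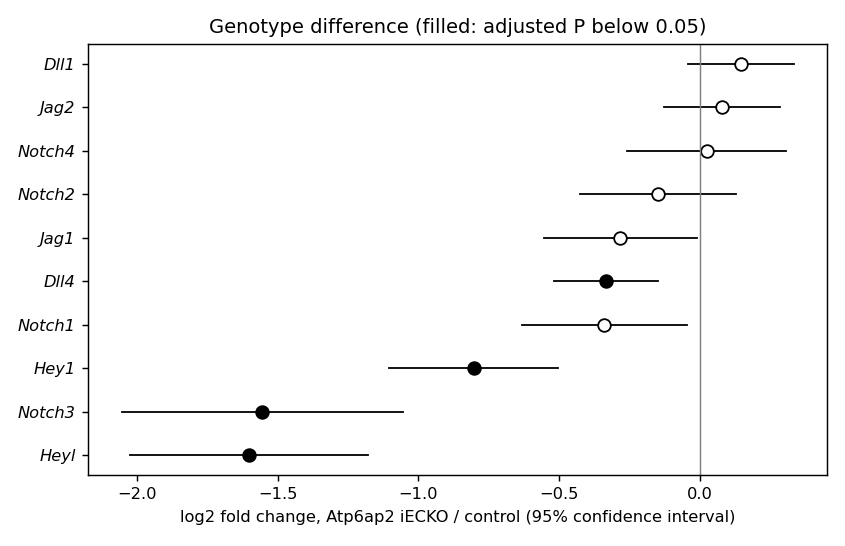
Log2 fold change of *Atp6ap2* iECKO over control for the 10 Notch genes, in order of size, with 95% confidence intervals from limma as lines and filled circles where the adjusted *P* value was below 0.05. *Heyl* (-1.60), *Notch3* (-1.55), *Hey1* (-0.80) and *Dll4* (-0.33) are filled, and the interval of *Notch1* (-0.63 to -0.05) also lies below 0.

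Promoter sequences, from 250 bases before to 50 bases after the gene start (RefSeq, GRCm38.p6), were at hand for 8 of the 10 members, in 9 windows because *Dll1* has a pair of starts. They were searched on both strands for TGGGAA, the core of the site that RBPJ binds, for its longer form GTGGGAA, which contains the core, and for CACGCG, a site type that Hes and Hey repressors bind. TGGGAA stood in 0 of the 9 member windows and in 25.6% of 32851 promoters. CACGCG stood in the windows of 5 members, *Notch2*, *Dll1*, *Dll4*, *Jag1* and *Jag2*, and in 9.27% of all promoters. Of these 5 members only *Dll4* was called. G and C made up 55.7% (*Jag1*) to 86.0% (*Jag2*) of the windows with CACGCG. The share over all promoters was not matched for base composition, so the 2 shares do not show an excess. The windows of *Hey1* and *Heyl* were not used here. That of the third Hey gene, *Hey2*, held GTGGGAA at both of its TGGGAA matches, a form found in 6.38% of all promoters. A match is a run of letters and was not tested as a binding site. The windows of the 2 fallen members with an entry and of *Hey2* are given to show these letters, with matches to TGGGAA or CACGCG, on either strand, in capitals and positions counted from the 5′ end, where the gene starts right after the first 250 bases. *Hey2* has its matches at 44 and 248, *Dll4* has CACGCG at 56, and *Notch3* has none of the 3 motifs. The windows are chr17:32166841-32167140 on the minus strand for *Notch3*, chr2:119325534-119325833 on the plus strand for *Dll4* and chr10:30842734-30843033 on the minus strand for *Hey2*.
Notch3: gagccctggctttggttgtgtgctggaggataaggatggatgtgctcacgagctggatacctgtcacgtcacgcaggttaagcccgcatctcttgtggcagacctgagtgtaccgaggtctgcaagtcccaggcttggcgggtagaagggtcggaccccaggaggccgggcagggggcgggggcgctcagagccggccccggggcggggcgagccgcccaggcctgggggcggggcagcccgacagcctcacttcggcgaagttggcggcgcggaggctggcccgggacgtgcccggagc
Dll4: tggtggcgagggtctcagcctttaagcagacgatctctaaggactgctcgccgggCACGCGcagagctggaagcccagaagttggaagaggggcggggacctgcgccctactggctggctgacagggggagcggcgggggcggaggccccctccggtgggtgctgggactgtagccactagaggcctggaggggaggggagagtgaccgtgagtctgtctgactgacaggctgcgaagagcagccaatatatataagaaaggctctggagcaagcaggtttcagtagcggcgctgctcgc
Hey2: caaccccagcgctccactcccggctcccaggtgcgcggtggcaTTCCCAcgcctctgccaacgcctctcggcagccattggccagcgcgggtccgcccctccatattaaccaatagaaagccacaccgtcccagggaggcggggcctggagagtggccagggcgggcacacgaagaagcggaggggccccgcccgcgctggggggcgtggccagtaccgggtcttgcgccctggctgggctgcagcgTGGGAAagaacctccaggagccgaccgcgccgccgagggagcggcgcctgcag

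*Hey2*, listed with the other targets, had low normalized counts of 129, 129 and 106 in controls and of 93.4, 63.2 and 83.3 in *Atp6ap2* iECKO iLECs. The groups did not overlap, and its log2 fold change was -0.61 (adjusted *P* = 0.155). Of the 5 other targets that could be tested, 0 fell and *Myc* rose, and 3 had an unadjusted *P* value below 0.05 (limma). The list thus had 20.0% higher and 60.0% below 0.05 without adjustment, where all genes gave 3.28% and 23.9%. *Myc*, a growth-promoting transcription factor that Notch can induce, had 803, 828 and 545 in controls and 1228, 1172 and 1385 in *Atp6ap2* iECKO iLECs (log2 fold change 0.82, SE 0.17, adjusted *P* = 0.0274). This was the opposite direction to the Hey genes, and the *Myc* call was lost without any 1 of the 3 *Atp6ap2* iECKO libraries (adjusted *P* up to 0.107). *Nrarp*, a feedback inhibitor that Notch induces, had 2757, 5329 and 4458 in controls and 2316, 2914 and 2654 in *Atp6ap2* iECKO iLECs. Control replicate 1 lay inside the mutant range, and the log2 fold change was -0.62 (adjusted *P* = 0.134). Without that library *Nrarp* was called lower (log2 fold change -0.90, adjusted *P* = 0.0125, with adjusted *P* values up to 0.293 over the alternatives). *Hes1*, a target of many cell types, had group means of 1708 ± 422 and 1654 ± 237 (SD, n = 3 each, log2 fold change -0.023, adjusted *P* = 0.959).

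The mural members were then set against the endothelial members within each library. The mean log2 level of *Notch3* and *Heyl* minus that of *Notch1*, *Notch4* and *Dll4* was -3.84, -3.52 and -3.28 in control replicates 1 to 3. It was -4.62, -5.07 and -5.04 in *Atp6ap2* iECKO replicates 1 to 3, all below the control range. The drop in this difference was -1.36 on the log2 scale, the change of the mural pair (-1.58) minus that of the endothelial members (-0.22). It ranged from -1.51 to -1.23 when 1 library was left out. No *P* value is given, as the members were chosen with results in view. Fewer mural cells among the isolated cells and less of these transcripts per cell cannot be told apart in bulk samples.

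Markers of mural cells, listed without *Notch3* and *Heyl*, were lower in the same libraries. Of 20 tested, 14 fell and 0 rose (limma, 18 with an unadjusted *P* value below 0.05), and 18 were separated downward. Of all genes tested, 4.97% were lower, 23.9% had an unadjusted *P* value below 0.05 and 15.0% were separated downward. The median log2 fold change of the mural markers was -1.49. *Rgs5*, a pericyte gene, changed most (1309 ± 245 against 339 ± 57.7, SD, n = 3 each, log2 fold change -1.94, adjusted *P* = 0.00562). The most abundant listed gene, *Mcam*, which endothelial cells also express, had 37144 ± 5013 and 39801 ± 3229 (adjusted *P* = 0.68). The summed level of all 20 was 70998 to 76902 in controls and 49189 to 56901 in *Atp6ap2* iECKO iLECs, and without *Mcam*, a choice made after its values were seen, 28071 to 42453 and 12187 to 13568. None of the 20 was at 0 in any library. The count of 14 was 9 when control replicate 3 or either of the mutant replicates 2 and 3 was left out. Library by library, the median mural marker had log2 ratios to the control mean of -0.40, 0.22 and 0.15 in controls and -1.36, -1.49 and -1.57 in *Atp6ap2* iECKO replicates 1 to 3. The same ratios were -0.21, 0.02 and 0.19, then -1.04, -1.69 and -1.93, for *Notch3*, and -0.33, 0.14 and 0.18, then -1.33, -1.70 and -1.78, for *Heyl*. The part of the mural cells in the fall of both genes was not tested.

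**Figure D4:**
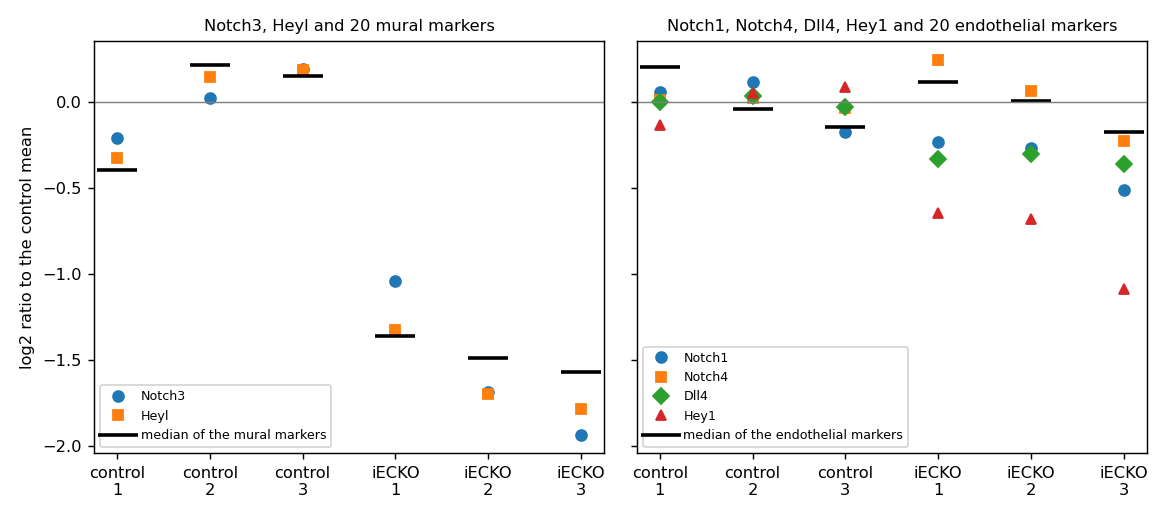
Log2 ratio of each library to the control mean for *Notch3* and *Heyl* (left) and for *Notch1*, *Notch4*, *Dll4* and *Hey1* (right), with black bars for the median of 20 mural (left) or 20 endothelial (right) markers. On the left the mutant points lie between -1.93 and -1.04, beside mural medians of -1.57 to -1.36, and on the right *Hey1* lies lowest in the mutant libraries, from -1.08 to -0.65. *Hey1* was set with neither the endothelial nor the mural members.

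Endothelial markers, against which the iLEC label was checked, were abundant in all 6 libraries, none was at 0, and 0 of 20 changed at an adjusted *P* value below 0.05 (limma, 3 with an unadjusted *P* value below 0.05, or 15.0% where all genes gave 23.9%). Their median log2 fold change was -0.0022, and their summed level was 477970 to 649786 in controls and 456943 to 566898 in *Atp6ap2* iECKO iLECs. *Cdh5*, the adhesion molecule of endothelial junctions, averaged 92569 and 96010, and the largest change was that of *Ptprb*, an endothelial phosphatase (log2 fold change -0.68, adjusted *P* = 0.0527). Markers of other cells were present as well. Of 15 fibroblast markers tested (16 listed), 10 fell and 0 rose (limma, 11 with an unadjusted *P* value below 0.05), with a median log2 fold change of -1.35. Of all genes, 4.97% were lower and 23.9% had an unadjusted *P* value below 0.05 (limma). Of the fibroblast markers tested, 11 were separated downward and 1 upward, against 15.0% and 14.7% of all genes. All listed summed to 130969 to 142913 in controls and 79896 to 113156 in *Atp6ap2* iECKO iLECs. Without *Eln*, the most abundant (69199 and 71094), left out as *Mcam* was, they summed to 55258 to 75792 in controls and 20250 to 31159 in *Atp6ap2* iECKO iLECs. *Fap* had the largest log2 fold change, -1.92 at low counts (adjusted *P* = 0.23). The fibroblast count went down to 5 without control replicate 2, 2 without control replicate 3, 3 without *Atp6ap2* iECKO replicate 2 and 2 without replicate 3. Of 12 epithelial, 11 leukocyte, 2 mesothelial and 5 lymphatic markers tested, only the epithelial *Scgb1a1* passed, with a rise of 1.75 on the log2 scale (adjusted *P* = 0.0408, limma, against 1 epithelial, 0 leukocyte, 0 mesothelial and 2 lymphatic markers with an unadjusted *P* value below 0.05). The most abundant of these were *Sftpc* (22765 in controls and 18533 in *Atp6ap2* iECKO iLECs on average), *Lyz2* (3942 and 3881), *Krt19* (402 and 330) and *Flt4* (6221 and 7021), and the most changed were *Cd3e* (log2 fold change 0.56, adjusted *P* = 0.496) among leukocyte and *Mmrn1* (0.52, adjusted *P* = 0.123) among lymphatic markers. The *Scgb1a1* call was 8.33% of the epithelial list, near the 8.25% of all genes that passed in either direction. With the *Xist* term *Scgb1a1* was not called (limma adjusted *P* = 0.0604). The lower counts with that term were 13 for mural markers, without *Vtn*, and 8 for fibroblast markers, without *Gli1* and *Slit3*. Summed levels overlapped between genotypes for the epithelial (26142 to 70914 and 32450 to 39483), leukocyte (6841 to 12592 and 5529 to 16545), mesothelial (348 to 1186 and 478 to 559) and lymphatic lists (13007 to 15767 and 15499 to 20636). The epithelial and mesothelial overlap rested on control replicate 3, which had the highest sum of both lists, while control replicates 1 and 2 (29470 and 26142 epithelial, 348 and 404 mesothelial) lay below every *Atp6ap2* iECKO library. The median epithelial marker of control replicate 3 had a log2 ratio to the control mean of 0.94, and the part of these cells in the results was not tested.

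Beyond the 10 members, 69 genes were listed from the steps of the pathway and from arterial endothelium, and 65 were tested. Of these, 9 fell and 2 rose, or 13.8% and 3.08%, where all genes gave 4.97% and 3.28%. Their median log2 fold change was -0.070. The count of 9 became 5 without control replicate 2 and 4 when control replicate 3 or either of the mutant replicates 2 and 3 was left out. With the *Xist* term, *Aph1b* (adjusted *P* = 0.0633), *Mib2* (0.0548) and *Neurl1b* (0.075) were no longer called, which left 7 lower and 1 higher. Of 15 genes of the nuclear complex, 0 passed (limma, 1 with an unadjusted *P* value below 0.05), and *Rbpj* itself averaged 2554 and 2228 (log2 fold change -0.21, adjusted *P* = 0.484). The largest change in that list was 0.31 for *Kat2a*, a histone acetyltransferase (adjusted *P* = 0.13).

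Of 10 genes for receptor cleavage, 1 passed, where 8.25% of all genes passed in either direction. Only 1 of the 10 had an unadjusted *P* value below 0.05 (limma), where all genes gave 23.9%. The list thus did not stand out from all genes. The gene that passed was *Aph1b*, a subunit of the γ-secretase that releases the intracellular part. It had 280, 472 and 407 in controls and 82.9, 138 and 218 in *Atp6ap2* iECKO iLECs (log2 fold change -1.47, adjusted *P* = 0.0432), and the call held in 1 of the 6 fits without 1 library. The nearly identical *Aph1c* averaged 150 and 120 (log2 fold change -0.31, adjusted *P* = 0.534), and how reads were split between both genes is uncertain. *Aph1a*, the most abundant of the 3, averaged 5524 and 5942. Among 6 genes for sugar chains on Notch, 1 passed, or 16.7%, against the same 8.25% of all genes. This was *Eogt*, which adds N-acetylglucosamine to the receptor. *Eogt* fell from 3529 ± 182 to 2638 ± 221 (SD, n = 3 each, log2 fold change -0.42, adjusted *P* = 0.03). *Eogt* was called in 1 of the 6 fits without 1 library.

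In the list for ligand and receptor traffic, 2 of 15 genes fell and 1 rose, or 13.3% and 6.67%, where all genes gave 4.97% and 3.28%. Unadjusted *P* values below 0.05 (limma) came to 26.7% of this list and 23.9% of all genes, so the list was near the share of all genes. *Dtx3*, of the Deltex family of ubiquitin ligases, fell from 1396 ± 103 to 908 ± 63.2 (log2 fold change -0.62, adjusted *P* = 0.0138). *Mib2*, a ubiquitin ligase that drives uptake of ligands, fell from 724 ± 65.7 to 515 ± 28.0 (-0.49, adjusted *P* = 0.0382). *Neurl1b*, of the Neuralized family with a like role, rose from 583 ± 86.7 to 869 ± 103 (0.58, adjusted *P* = 0.0479). The calls held in 3, 0 and 1 of the 6 fits without 1 library, in that order. *Mib1*, the main ligase for Notch ligands in mammals, averaged 5619 and 5494 (log2 fold change -0.025, adjusted *P* = 0.916).

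Of 6 tested genes for other proteins that bind Notch, *Cntn1* and *Mfap2* fell, or 33.3%, where 4.97% of all genes were lower. The other 4 had positive log2 fold changes, of which 0 were called, and the list had a median of 0.30. Genotypes were separated downward in 2 of the 6 genes and upward in 2. *Cntn1*, a contactin best known from neurons, had 97.5, 174 and 142 in controls and 28.6, 27.1 and 26.1 in *Atp6ap2* iECKO iLECs (log2 fold change -2.26, adjusted *P* = 0.00897), the largest change of any pathway gene tested. *Mfap2*, a protein of elastic microfibrils, had 4048, 3851 and 4337 in controls and 2743, 2129 and 2043 in *Atp6ap2* iECKO iLECs (log2 fold change -0.83, adjusted *P* = 0.011). Both were apart in all libraries, and both calls held in all 6 fits without 1 library. *Egfl7*, an endothelial secreted protein, averaged 13241 and 14995 (0.18, adjusted *P* = 0.254).

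**Figure D5:**
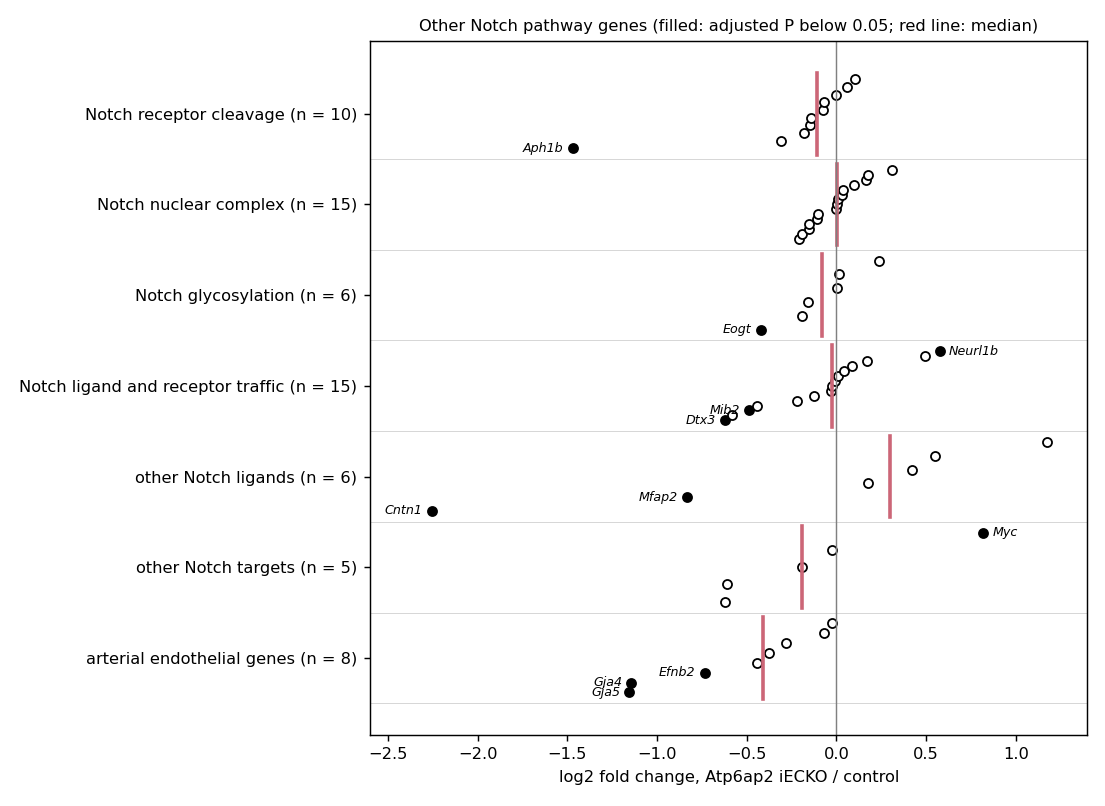
Log2 fold change of *Atp6ap2* iECKO over control for the 65 other pathway genes tested, 1 circle per gene in 7 lists, filled and named where the adjusted *P* value was below 0.05, with a red line at each median. The nuclear complex has a median of 0.0048 with none filled, and the arterial genes have the lowest median, -0.41.

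The last list held arterial endothelial genes. Of 8 tested, 3 fell and 0 rose (limma, 6 with an unadjusted *P* value below 0.05), all 8 had a negative log2 fold change, and 6 were separated downward, against 15.0% of all genes. *Gja4*, which encodes connexin 37 of arterial junctions and is also found in mural cells, had 4847, 5837 and 6035 in controls and 2856, 2478 and 2241 in *Atp6ap2* iECKO iLECs. The groups were far apart (log2 fold change -1.14, SE 0.12, adjusted *P* = 0.00731), and the call held in all 6 fits without 1 library. *Gja5*, connexin 40, had 2142, 2050 and 1986 in controls and 1231, 755 and 851 in *Atp6ap2* iECKO iLECs (log2 fold change -1.15, adjusted *P* = 0.0113). Its call was lost without *Atp6ap2* iECKO replicate 3 (0.0504). *Efnb2*, the arterial ephrin and a Notch target, had 34841, 31325 and 30266 in controls and 23029, 19646 and 15838 in *Atp6ap2* iECKO iLECs (log2 fold change -0.73, adjusted *P* = 0.0256), and its call held in 1 of those 6 fits. *Sox17*, a transcription factor of arterial fate, averaged 5716 and 5613 in overlapping groups (log2 fold change -0.026, adjusted *P* = 0.88). The part of mural cells in the falls of the arterial list was not tested.

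The genes whose profile over the 6 libraries was most like that of a member were found by the root mean square difference of log2 levels, each centered on its own mean. For *Heyl* the 5 nearest of the genes tested were *Postn*, *Pdgfrb*, *Col3a1*, *Dkk3* and *Ndufa4l2*, at differences from 0.03 to 0.07. *Pdgfrb* is the growth factor receptor of pericytes, *Postn* and *Col3a1* encode matrix proteins of mesenchymal cells, and *Ndufa4l2* was on the mural list. For *Notch3* they were *Wasf3*, *C330020E22Rik*, *Ltbp2*, *Dkk3* and *Pcolce2*, at differences from 0.08 to 0.09, of which *Ltbp2* and *Pcolce2* also encode matrix proteins. *Heyl* was the member nearest to *Notch3*, at 0.15 and place 28, and *Hey1* the next, at 0.42 and place 471. For *Dll4* the 5 nearest were *Lzts2*, *Dcaf5*, *Map4k3*, *Napg* and *Pcmtd1* (0.03 to 0.04), and for *Notch1* *Zfp423*, *Trove2*, *Ccnyl1*, *Heph* and *Cdc42bpa* (0.01 to 0.05). *Dll4* and *Notch1* were each other's nearest member, at 0.10. All these profiles share the same 6 libraries and the same genotype contrast.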

How the data were processed

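RNA-Seq of iLECs was analysed for 3 control and 3 *Atp6ap2* iECKO samples, grouped by their labels. The authors prepared libraries with a TruSeq v2 kit, which does not mark strand, and aligned and quantified the reads against mm10 in BaseSpace. The annotation is not given in the sources used here. The values the authors deposited are a normalized signal: the labels name raw counts, but the values are fractional and share a median ratio of 1.0036 to the geometric mean in every library. The read number behind a value is thus unknown, precision rests on the spread over 3 libraries, and count models were not run.

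A gene was tested if it reached 10 in 3 or more libraries (14456 genes). The log2(value + 1) was fitted with limma (version 3.58.1), allowing the variance to follow the mean and using no covariate, and Benjamini-Hochberg adjustment covered every tested gene. Fold changes are on that scale and understate those of low genes. The code was tested on simulated data. *P* values measure the spread between samples that the methods describe as biological replicates. Exon lengths and coordinates came from GENCODE M21 (GRCm38). The 10 members and all lists were chosen with earlier results of these data known. By rule, the text names the members, other pathway genes past the threshold, the most changed gene of each list, the most abundant and most changed markers, and the 5 nearest profiles of *Notch3*, *Heyl*, *Dll4* and *Notch1*. *Aph1c*, *Aph1a*, *Mib1*, *Egfl7*, *Rbpj*, *Hes1*, *Nrarp*, *Hey2*, *Sox17*, *Xist*, *Ddx3y*, *Vtn*, *Gli1*, *Slit3* and the overlapping genes were added after their values were seen. Alternatives were other scalings, filters, pseudocounts and variance models, the replicate number or *Xist* as a covariate, and each library left out. Figures were drawn with matplotlib 3.10.9.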

Additional observations from a re-analysis of the deposited data

How the results depend on the processing

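*Notch3* and *Heyl* kept their call under all 16 alternatives, *Hey1* under 14 and *Dll4* under 7. Without limma's trend, 2 members, 2 other pathway genes and 2 fibroblast markers were lower and 0 other pathway genes higher. With 1 library left out, 2 to 3 members and 4 to 7 other pathway genes were lower and 0 to 2 higher, as were 9 to 14 mural and 2 to 10 fibroblast markers lower and 0 to 1 endothelial markers higher. Other pathway genes that rose numbered 1 with no filter on low values and 1 with the *Xist* term. Endothelial markers that fell numbered 1 with scaling to the library total or the upper quartile, with a mean of at least 50 and with limma's robust option. The log2 fold change of *Jag2* ranged from -0.0014 to 0.14 and that of *Notch4* from -0.085 to 0.15 with 1 library left out, so both changed sign. The cause was not tested. Depth could not be weighed, as the values are not reads.

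The genotypes use the same replicate numbers. Deviations of same-numbered libraries correlated across genes by 0.25, 0.11 and 0.078, all positive. Those of different-numbered libraries correlated by -0.067, -0.19, -0.21, 0.10, -0.026 and -0.058. As not every same-numbered pair passed 0.1, the numbers were not taken to pair the samples. Whether the samples were paired is not known from these values. Control replicate 3 correlated more with *Atp6ap2* iECKO replicate 2 (0.10) than with its own number, and both were the libraries with low *Xist*. With the replicate block 5 members were lower, *Notch1* among them (adjusted *P* = 0.0494, over all alternatives 0.0494 to 0.432), *Nrarp* was called lower (adjusted *P* = 0.0301), 2 endothelial markers were lower and 1 fibroblast marker higher, and of all genes 838 were lower and 670 higher.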
